A study of Homo sapiens with 24 samples.

Results

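MV4-11 and KG-1a, 2 established human lines of acute myeloid leukemia (AML), were grown untreated and compared at 24 h and at 8 h to describe what changes in RNA with time in culture alone. The members are the 8 libraries labelled as untreated, 2 replicates (A and B) for each line and time, out of 24 libraries in all. The other 16 libraries came from the same lines given 1 μM 8-chloro-adenosine (8CA) or 1 μM 8-amino-adenosine (8AA) for 8 h or 24 h, and the untreated libraries served as their controls. Both lines carry the genotype label WT and were kept in Iscove's medium with fetal bovine serum, penicillin and streptomycin. The hours of the untreated libraries come from the sample titles alone, and the labels give no separate cultures, harvest dates or library batches. The 24 h and 8 h cultures therefore cannot be told apart from their harvests. The p-values measure the spread between replicate libraries, treated ones included, and that spread may be technical. Each line stands for a single leukemia.

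MV4-11 is a myelomonocytic line with a KMT2A fusion and an internal tandem duplication of the receptor FLT3. KG-1a is an immature CD34+ line with an FGFR1 fusion. The unfolded protein response raises chaperones of the endoplasmic reticulum (ER) when proteins misfold there, and the heat shock response does the same in the cytosol. The sterol regulatory element binding proteins SREBP1 and SREBP2, made from SREBF1 and SREBF2, switch on the synthesis of fatty acids and cholesterol when sterols run low, while the liver X receptors switch on the efflux pumps ABCA1 and ABCG1 when sterols are high. Hypoxia-inducible factors switch on genes such as BNIP3 and PDK1 when oxygen is short.

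Total counts of the 8 libraries lay between 18633963 and 22616316 reads on 23354 genes, none of them mitochondrial. All levels below are CPM, read counts relative to library size, scaled by TMM, and all fold changes are 24 h over 8 h, given as log2 values with the standard error of the fit and n = 2 against 2 libraries. Marker levels separated the lines, with exceptions. The summed level of 7 MV4-11 markers lay between 3700 and 4390 CPM in MV4-11 and between 113 and 122 CPM in KG-1a, where MEIS1 was at 0. Most of that sum was LYZ (between 2891 and 3672 CPM in MV4-11), and HOXA9 and HOXA10 ran the other way, with 7.26 to 7.81 CPM in MV4-11 against 23.2 to 27 in KG-1a for HOXA9 and 62 to 71.8 against 87 to 95.4 for HOXA10. The summed level of 5 KG-1a markers, CD34 among them, lay between 690 and 781 CPM in KG-1a and was at most 9.32 CPM in MV4-11. Hemoglobin genes and the platelet genes PF4 and PPBP were at 0 in all 8 libraries. ITGA2B, from the same megakaryocyte list, lay between 60.8 and 65.7 CPM in KG-1a and was at most 1.81 CPM in MV4-11. T cell markers summed to between 294 and 308 CPM in KG-1a at both times, most of it CD3D, and to at most 0.0924 CPM in MV4-11.

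A small share of the genes tested was called between 8 h and 24 h, and most of the called changes were modest. In MV4-11, 709 of 12800 genes tested (5.54%) passed an adjusted p of 0.05 (edgeR's quasi-likelihood test, p-values adjusted by Benjamini-Hochberg). Of these, 433 (3.38%) were higher and 276 (2.16%) lower at 24 h, and 43 changed at least 2-fold. In KG-1a, 566 of 12711 genes (4.45%) passed, 316 (2.49%) higher and 250 (1.97%) lower, and 11 changed at least 2-fold. By an unadjusted p below 0.05 in the same edgeR test, 2725 genes passed in MV4-11 and 2538 in KG-1a. With 2 against 2 libraries, a gene that was not called is not shown to be unchanged. The median absolute change of the genes called was 0.285 on the log2 scale in MV4-11 and 0.284 in KG-1a, while the median change of all genes tested was 0.00128 and −0.00101. The split in KG-1a depended on the scaling, with 418 genes higher and 165 lower when only library size was used, and 372 higher and 170 lower with upper-quartile scaling. Treated libraries share in the spread estimate, and with untreated libraries fitted alone the calls were 740 in MV4-11 and 1006 in KG-1a. With 2 replicates a group, the counts fell when any library was left out. Refits of MV4-11 made 244 or 287 calls without 1 of its 8 h libraries (A or B) and 221 or 153 without 1 of its 24 h libraries, and refits of KG-1a made 209 or 120 and 60 or 64.

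The lines shared part of their response. Of 11485 genes tested in both, 649 were called in MV4-11 and 500 in KG-1a, and 95 of them changed in the same direction, which is 14.6% of the MV4-11 calls and 19% of the KG-1a calls. Of these, 47 were higher at 24 h in both lines (0.409% of the genes tested in both) and 48 were lower in both (0.418%), while 5 changed in opposite directions (0.0435%). Across all 11485 genes, which are not independent replicates, the changes in the 2 lines were weakly related (Pearson r = 0.176, Spearman rho = 0.23). The lines share no library, so the shared genes do not rest on a common control. Leaving out 1 library lowered the shared counts to between 9 and 26 higher and between 5 and 26 lower genes, with the lowest counts without a 24 h library of KG-1a.

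**Figure D1:**
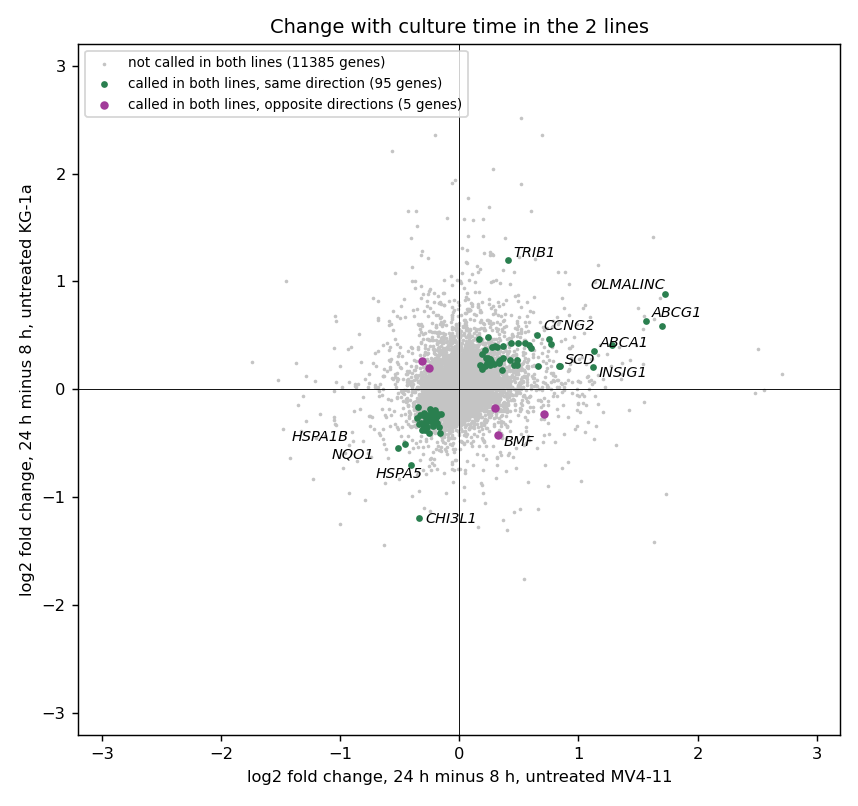
Change between 8 h and 24 h in untreated MV4-11 (x axis) and untreated KG-1a (y axis), as log2 fold changes, for 11485 genes tested in both lines, of which 5 lie outside the axes. The 95 genes called in the same direction (green) form a compact group of small decreases and a longer arm of increases that extends mainly along the MV4-11 axis, and 5 genes (purple) were called in opposite directions.

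ER chaperones fell in both lines. Of 18 unfolded protein response genes tested, 9 were lower at 24 h in MV4-11 and 9 in KG-1a, and 7 were lower in both: HSPA5, CALR, HSP90B1, PDIA4, HYOU1, MANF and HERPUD1. Over all genes tested, 2.16% were called lower in MV4-11 and 1.97% in KG-1a. The median change of the list in MV4-11 and KG-1a was −0.16 and −0.25, against values near 0 for all genes. HSPA5 encodes BiP, the main ER chaperone of the Hsp70 family. It was at 1072 and 1082 CPM at 8 h and at 816 and 814 CPM at 24 h in MV4-11, and at 1410 and 1349 CPM at 8 h and 839 and 861 CPM at 24 h in KG-1a. Both 24 h libraries lay below both 8 h libraries in each line. All 9 genes called lower in each line lay so too, and over all genes tested 25.5% in MV4-11 and 25.8% in KG-1a did. The calls rest on these same libraries, so a lack of overlap in called genes is largely set by the choice. Here and below, it is no separate support. The log2 change of HSPA5 was −0.40 ± 0.04 in MV4-11 (edgeR adjusted p = 2.75e-05) and −0.70 ± 0.06 in KG-1a (edgeR adjusted p = 5.58e-06), and the decrease was larger in KG-1a (difference 0.31, edgeR adjusted p = 0.0311).

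CALR encodes calreticulin, a calcium-binding chaperone of newly made glycoproteins. Its level went from 1740 and 1702 to 1368 and 1350 CPM in MV4-11, and from 2830 and 2777 to 2217 and 2260 CPM in KG-1a. These are log2 changes of −0.34 ± 0.04 and −0.32 ± 0.06 (edgeR adjusted p = 0.000228 and 0.00658). The groups did not overlap in either line, and the difference between the decreases did not pass the test (edgeR adjusted p = 1). HSP90B1, the ER form of Hsp90, changed by −0.19 ± 0.04 in MV4-11 and −0.31 ± 0.05 in KG-1a. MANF, a secreted factor held in the ER, changed by −0.30 and −0.36, HYOU1, an Hsp70-like chaperone, by −0.29 and −0.25, PDIA4, a disulfide isomerase, by −0.26 and −0.28, and HERPUD1, which serves the degradation of misfolded ER proteins, by −0.22 and −0.34. The remaining calls were made in 1 line each, with CRELD2 (−0.43 ± 0.07) and SDF2L1 (−0.39 ± 0.08) in MV4-11 and DNAJC3 (−0.25 ± 0.05) and CANX (−0.16 ± 0.04) in KG-1a, and for none of these 4 did the change differ between the lines by the test (edgeR adjusted p of 0.28 or more). XBP1, a transcription factor of the response, rose in MV4-11 from 273 and 265 to 297 and 311 CPM (0.17 ± 0.04, edgeR adjusted p = 0.0229) and changed by −0.03 ± 0.05 in KG-1a, where it was not called. In MV4-11 between 5 and 9 members of the list were called lower when 1 library was left out, with 6 without 8 h B and 5 without 24 h B. In KG-1a the count was 5 and 6 without 8 h A and B, 2 without 24 h A and 1 without 24 h B.

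The promoters of these genes are shown because 3 of the 7 shared genes hold the ER stress response element, the sequence through which ATF6 is known to act. The motif was searched on both strands, as CCAAT and CCACG with any 9 bases between them, in the 250 bases before each start site of RefSeq's promoters (GRCh38.p14). It lies before HSPA5, HSP90B1 and CALR, and before 25 of all 27305 genes of that table (0.0916%). Capitals mark the motif, each sequence is read 5′ to 3′ on the strand of the gene, and the stretches lie at chr9:125241344-125241453 on the minus strand (HSPA5), chr12:103930210-103930349 on the plus strand (HSP90B1, with 2 copies) and chr19:12938359-12938448 on the plus strand (CALR). A match is a description of these letters and not a site shown to be bound. The 7 genes come from a list of known response genes, and members not called in both lines were not counted apart. A share above that of all genes may follow from the list alone and says nothing of the change with time.
HSPA5: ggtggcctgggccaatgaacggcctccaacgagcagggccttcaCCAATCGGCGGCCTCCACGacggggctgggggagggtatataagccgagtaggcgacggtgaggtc
HSP90B1: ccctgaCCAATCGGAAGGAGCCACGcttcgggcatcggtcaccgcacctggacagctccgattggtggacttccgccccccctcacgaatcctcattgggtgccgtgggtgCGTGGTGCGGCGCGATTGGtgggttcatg
CALR: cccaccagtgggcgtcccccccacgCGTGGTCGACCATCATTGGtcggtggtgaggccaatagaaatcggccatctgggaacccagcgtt

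Cytosolic heat shock genes fell as well. Of 16 tested in MV4-11, 11 were lower at 24 h (against 2.16% of all genes). Of 15 tested in KG-1a, 10 were lower (against 1.97%). None was higher, and the median change of the list in MV4-11 and KG-1a was −0.21 and −0.22. The 8 shared genes were HSP90AA1, HSPA8, HSPA1B, HSPH1, DNAJA1, DNAJB1, AHSA1 and STIP1. HSP90AA1, the inducible cytosolic Hsp90, went from 3434 and 3505 to 2841 and 2791 CPM in MV4-11 and from 2779 and 2758 to 2205 and 2147 CPM in KG-1a. HSPA8, the constitutive Hsp70, went from 3587 and 3693 to 2993 and 2889 CPM and from 4767 and 4779 to 4005 and 4081 CPM. Neither gene had overlapping groups in either line. The changes of HSP90AA1 were −0.30 ± 0.04 and −0.35 ± 0.05 (edgeR adjusted p = 0.000394 and 0.00151), and those of HSPA8 were −0.31 ± 0.05 and −0.24 ± 0.06 (edgeR adjusted p = 0.000919 and 0.0261).

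HSPH1, the nucleotide exchange factor of Hsp70, fell more in KG-1a (−0.41 ± 0.04) than in MV4-11 (−0.17 ± 0.04), and this difference passed the test (0.26, edgeR adjusted p = 0.0221). The cochaperones DNAJA1 (−0.25 and −0.19), DNAJB1 (−0.24 and −0.26), AHSA1 (−0.22 and −0.25) and STIP1 (−0.21 and −0.21) fell to similar extents. HSPA1B changed by −0.46 ± 0.11 and −0.51 ± 0.11, and HSPA1A, tested in MV4-11 only, by −0.71 ± 0.08. HSPA1A and HSPA1B are near-identical copies whose reads the counting may have divided, so their separate values are uncertain. Leaving out a library reduced the heat shock calls to 4 without MV4-11 8 h A, 24 h A or 24 h B and to 5 without 8 h B, and to 4 without KG-1a 8 h A and 2 without 8 h B, 24 h A or 24 h B.

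The heat shock element was searched on both strands as GAA, TTC and GAA, with any 2 bases (NN) between each block and the next. It lies before 2 of the 8 shared heat shock genes and before 152 of all 27305 genes (0.557%). These 8 genes also come from a list of known response genes, so this contrast says nothing of the change with time. The 110 bases before the start of HSPA8 (chr11:123062137-123062246) and of one start of HSP90AA1 (chr14:102087045-102087154), both on the minus strand, are shown with the element in capitals, where it reads on the opposite strand.
HSPA8: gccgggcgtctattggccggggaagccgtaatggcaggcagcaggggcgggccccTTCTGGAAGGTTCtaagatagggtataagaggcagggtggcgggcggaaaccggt
HSP90AA1: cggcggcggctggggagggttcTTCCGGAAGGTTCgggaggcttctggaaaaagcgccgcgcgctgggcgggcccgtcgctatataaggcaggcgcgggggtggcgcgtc

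**Figure D2:**
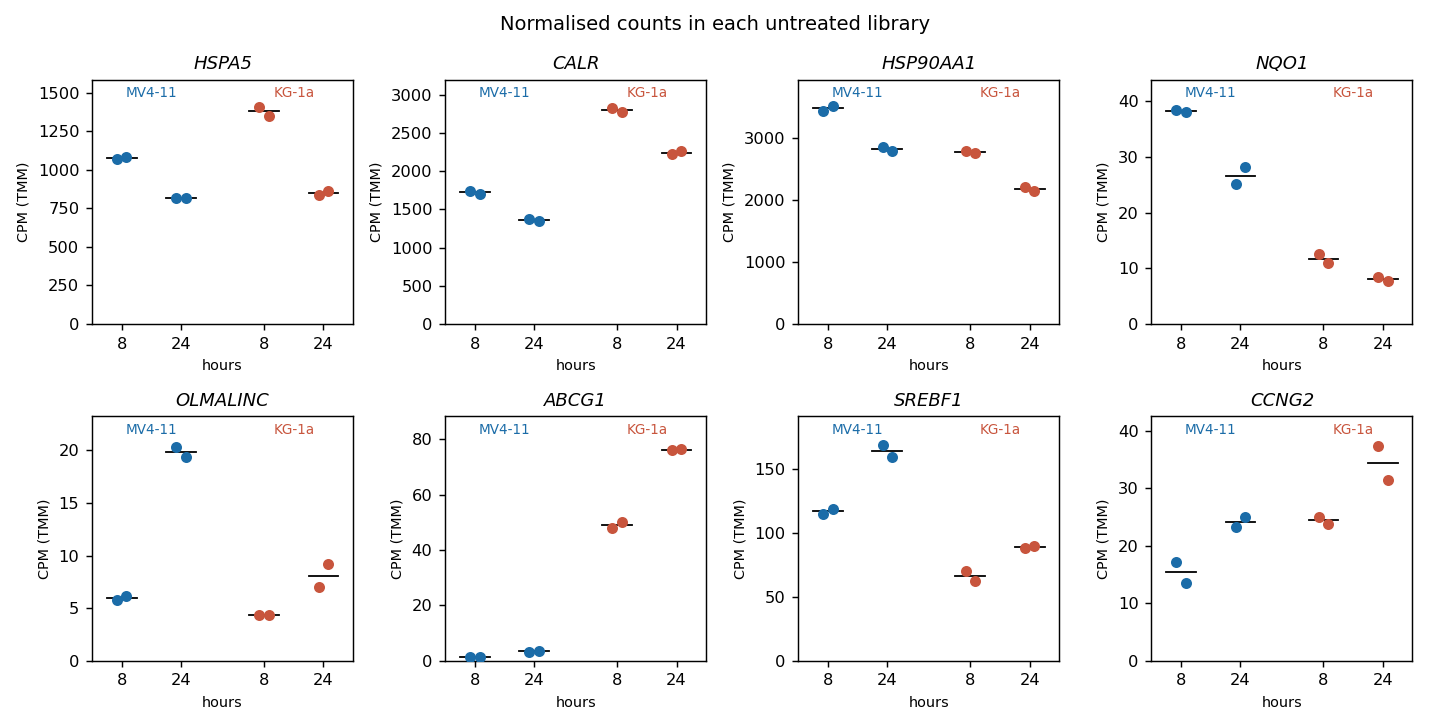
TMM-scaled CPM in each untreated library for 4 genes lower and 4 genes higher at 24 h in both lines, with 1 point per library and a bar at the mean of the 2 replicates, MV4-11 in blue and KG-1a in red. Each axis starts at 0, and in each panel both 24 h libraries of a line lie on the same side of both 8 h libraries.

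Redox and nucleolar genes gave further shared decreases. Of the NRF2 and redox genes, 5 of 18 were lower in MV4-11 and 6 of 17 in KG-1a, with medians of −0.17 and −0.13 and none higher. The shares called lower over all genes were 2.16% and 1.97%. NQO1, a quinone reductase, headed the genes lower in both lines when ranked by the smaller of their 2 changes. It went from 38.4 and 38.1 to 25.2 and 28.1 CPM in MV4-11 and from 12.5 and 10.9 to 8.37 and 7.67 CPM in KG-1a (−0.52 ± 0.07 and −0.54 ± 0.11, edgeR adjusted p = 0.00039 and 0.0149). FTL, the ferritin light chain, was also lower in both (−0.29 ± 0.06 and −0.37 ± 0.07). FTH1 (−0.26 ± 0.05) and PRDX1 (−0.21 ± 0.05) were lower in MV4-11, and TXN (−0.28 ± 0.05), TXNRD1 (−0.28 ± 0.04), GCLM (−0.31 ± 0.07) and GSR (−0.25 ± 0.05) were lower in KG-1a. The redox count was 5 and 2 without MV4-11 8 h A and B, 1 and 2 without 24 h A and B, and between 0 and 3 without any 1 KG-1a library.

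Of 22 genes on the list for the nucleolus and translation, 6 fell in MV4-11 and 7 in KG-1a, with medians of −0.11 and −0.19. That list also holds metabolic enzymes, and ODC1, SRM and CAD among the genes called are such enzymes. The shares called lower over all genes were 2.16% and 1.97%. RRP9, a protein of the small nucleolar RNP that processes ribosomal RNA, was lower in both lines (−0.25 ± 0.06 and −0.40 ± 0.08), as was ODC1, the first enzyme of polyamine synthesis (−0.21 ± 0.05 and −0.30 ± 0.05). NOP16, NOP56 and EIF5A fell in MV4-11 by 0.30, 0.18 and 0.21 on the log2 scale, and RRS1, SRM, CAD, PES1 and WDR43 were called lower in KG-1a. These counts reached 0 without MV4-11 24 h B and without either KG-1a 24 h library, and lay at 5, 2 and 1 without MV4-11 8 h A, 8 h B and 24 h A and at 2 and 4 without KG-1a 8 h A and B. The other genes at the top of the shared decreases were CD3EAP, a subunit of RNA polymerase I (−0.31 ± 0.05 and −0.37 ± 0.09), SLC27A4, a fatty acid transporter (−0.29 and −0.38), TUBA1C, an alpha tubulin (−0.28 and −0.30), TIMM10, a mitochondrial import chaperone (−0.28 and −0.28), NSFL1C, a cofactor of the p97 ATPase (−0.27 and −0.28), MIIP (−0.30 and −0.33) and VPS9D1-AS1 (−0.32 and −0.31). VPS9D1-AS1 is an antisense RNA, and its reads cannot be told apart from those of VPS9D1 because strand use is not given in the sources used here.

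CHI3L1, a secreted chitinase-like glycoprotein, was lower in both lines and more so in KG-1a. It went from 36.3 and 35.4 to 29.4 and 27.1 CPM in MV4-11 and from 185.6 and 172.9 to 75.9 and 81.1 CPM in KG-1a. No groups overlapped. The change was −0.34 ± 0.08 in MV4-11 (edgeR adjusted p = 0.0184) and −1.19 ± 0.06 in KG-1a (edgeR adjusted p = 1.41e-08), the smallest adjusted p of the KG-1a comparison. The difference between the lines was 0.86 (edgeR adjusted p = 8.18e-06).

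Genes of sterol export and fatty acid synthesis were among the shared increases. OLMALINC, a long noncoding RNA, headed them when ranked by the smaller of the 2 changes, and went from 5.82 and 6.19 to 20.3 and 19.4 CPM in MV4-11 and from 4.39 and 4.37 to 7.01 and 9.19 CPM in KG-1a. That is 3.3-fold and 1.84-fold (1.72 ± 0.11 and 0.88 ± 0.18, edgeR adjusted p = 1.81e-07 and 0.0111). ABCG1, which exports cholesterol to lipoproteins, rose from 1.15 and 1.16 to 3.19 and 3.66 CPM in MV4-11 and from 47.9 and 50.1 to 76.1 and 76.5 CPM in KG-1a (1.56 ± 0.21 and 0.64 ± 0.05, edgeR adjusted p = 0.000463 and 6.63e-06). The groups did not overlap for either gene, and ABCG1 was scarce in MV4-11 at both times. ABCA1, the partner exporter, rose from 30.6 and 31.7 to 68.3 and 68.1 CPM in MV4-11 and from 153.6 and 160.2 to 204.5 and 197.9 CPM in KG-1a (1.13 ± 0.07 and 0.36 ± 0.09). OLMALINC, ABCG1 and ABCA1 all rose more in MV4-11, by 0.86, 0.94 and 0.79 on the log2 scale (edgeR adjusted p = 0.045, 0.0109 and 0.00169).

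SREBF1 and 2 of the enzymes it controls rose in both lines. SREBF1 itself went from 115 and 119 to 169 and 160 CPM in MV4-11 and from 70.2 and 62.5 to 88.6 and 90.2 CPM in KG-1a. Its rise was 0.49 ± 0.05 and 0.43 ± 0.06 (edgeR adjusted p = 2.92e-05 and 0.00151), and the difference of 0.07 did not pass the test (edgeR adjusted p = 0.789). SCD, the stearoyl-CoA desaturase, rose from 686 and 701 to 1211 and 1272 CPM and from 1056 and 1021 to 1187 and 1224 CPM, which is 0.84 ± 0.04 in MV4-11 against 0.22 ± 0.04 in KG-1a (difference 0.64, edgeR adjusted p = 2.29e-06). FADS2, the delta-6 desaturase of polyunsaturated fatty acids, rose by 0.66 ± 0.05 and 0.22 ± 0.06, and INSIG1, which holds the SREBP proteins back in the ER, by 1.12 ± 0.07 and 0.21 ± 0.05. The calls of ABCA1, FADS2 and INSIG1 in KG-1a had adjusted p-values of 0.037, 0.0473 and 0.0323 by edgeR, and were lost without any 1 KG-1a library, except that INSIG1 kept its call without 8 h B (edgeR adjusted p up to 0.283 over the alternatives).

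The other genes that led the shared increases belong to no single list. TNFAIP3, an inhibitor of NF-kappaB signalling, went from 18.6 and 16.5 to 26.3 and 26.2 CPM in MV4-11 and from 22 and 19.1 to 26.4 and 28.2 CPM in KG-1a (0.58 ± 0.09 and 0.41 ± 0.08, edgeR adjusted p = 0.00089 and 0.00955). CCNG2, a cyclin-like gene high in resting cells, rose by 0.65 ± 0.11 and 0.50 ± 0.10, and TRIB1, a pseudokinase of the Tribbles family, by 0.41 ± 0.11 and 1.20 ± 0.23. ITGAX, the integrin CD11c, rose by 0.77 and 0.42, ETV5, a transcription factor downstream of growth factor signalling, by 0.44 and 0.43, and CTSS, a lysosomal protease, by 0.36 and 0.40. SLC44A2, a choline transporter, rose by 0.75 and 0.47, UTRN, the dystrophin-related utrophin, by 0.30 and 0.40, and TMEM71, SH2D3C and METTL7A by between 0.31 and 0.60. SLC38A2, an amino acid transporter of the amino acid response list, was also higher in both lines (0.29 ± 0.06 and 0.24 ± 0.06).

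Cholesterol synthesis genes changed in MV4-11 and differed between the lines. In MV4-11, 18 of 22 tested genes of cholesterol synthesis and uptake were higher at 24 h and none was lower, with a median change of 0.48. Of all genes, 3.38% were called higher in MV4-11 and 2.49% in KG-1a. In KG-1a, INSIG1 alone of 22 was called, with a median of 0.04, and the difference between the lines passed the test for 12 of the 22 genes, all with the larger change in MV4-11 (over all 14055 genes in that test, 0.953% lay so). HMGCS1, the first committed step, went from 61.2 and 63.9 to 109.9 and 130.5 CPM in MV4-11 and from 198.8 and 200.5 to 210.3 and 207.1 CPM in KG-1a. The change was 0.94 ± 0.07 in MV4-11 (edgeR adjusted p = 1.41e-06) and 0.06 ± 0.05 in KG-1a, where it was not called, and the difference was 0.89 (edgeR adjusted p = 2.29e-06). KG-1a began at the higher level of this gene, and MV4-11 at 24 h was still below it. DHCR7, the last step of the pathway, changed by 0.88 ± 0.08 and −0.01 ± 0.06, LSS, which closes the sterol rings, by 0.70 ± 0.07 and 0.06 ± 0.05, and SQLE, the squalene epoxidase, by 0.50 ± 0.06 and 0.06 ± 0.05. STARD4, a carrier of cholesterol inside the cell, went from 7.98 and 7.76 to 14 and 18.1 CPM in MV4-11 and from 28.5 and 29.6 to 28.7 and 27.6 CPM in KG-1a. SREBF2 rose by a modest 0.28 ± 0.05 in MV4-11 (edgeR adjusted p = 0.00662).

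Fatty acid genes were called in both lines, more of them in MV4-11. Of 11 tested, 8 were higher in MV4-11 and 3 in KG-1a (SREBF1, SCD and FADS2), with medians of 0.40 and 0.08. The shares called higher over all genes were 3.38% and 2.49%. For 7 of the 11 the difference between the lines passed, each with the MV4-11 change above that in KG-1a (0.953% of all genes). FASN, the fatty acid synthase, went from 1006 and 1068 to 1381 and 1381 CPM in MV4-11 (0.41 ± 0.04) and from 917 and 833 to 806 and 863 CPM in KG-1a (−0.07 ± 0.06). FADS1, the delta-5 desaturase, rose by 0.63 ± 0.04 in MV4-11 and changed by 0.11 ± 0.04 in KG-1a without passing. MYLIP, a liver X receptor target that degrades lipoprotein receptors, rose by 0.56 ± 0.05 in MV4-11 (edgeR adjusted p = 1.58e-05), so that ABCA1, ABCG1 and MYLIP were 3 of 6 liver X receptor targets called in that line. In MV4-11, 16 of the 18 cholesterol genes called were higher in replicate B than in replicate A at 24 h, and 10 of 18 at 8 h. Of all genes tested, 50.1% lay so at 24 h and 54.6% at 8 h. The cholesterol count lay between 15 and 17, and the fatty acid count was 7, when any MV4-11 library was left out. In KG-1a the fatty acid count was 2 without 8 h A and 1 without any other library.

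Hypoxia genes rose in MV4-11. Of 15 tested in MV4-11, 10 were higher at 24 h (against 3.38% of all genes) and none was lower, with a median of 0.52. Of 14 tested in KG-1a, none was called higher and NDRG1 was called lower, with a median of 0.10. In KG-1a 10 of the 14 changes were positive and 4 negative, and 6 genes had an unadjusted p below 0.05 (edgeR, either direction). The difference between the lines passed the test for 6 of 15, each with the MV4-11 change above that in KG-1a (0.953% of all genes). BNIP3, a mitophagy receptor, went from 10.6 and 8.41 to 16.7 and 18.3 CPM in MV4-11 (0.89 ± 0.12, edgeR adjusted p = 0.000455) and from 24.1 and 29.8 to 29.2 and 27.1 CPM in KG-1a, where the groups overlapped. PDK1, which keeps pyruvate out of the mitochondrion, went from 30.6 and 30.7 to 43 and 44.7 CPM in MV4-11 (0.52 ± 0.07, edgeR adjusted p = 0.000493) and from 55.2 and 59.2 to 60.2 and 62 CPM in KG-1a (0.09 ± 0.06, not called). The difference between the lines was 0.85 for BNIP3 and 0.44 for PDK1 (edgeR adjusted p = 0.00778 and 0.0188).

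HIF1A, the oxygen-regulated factor itself, rose by 0.36 ± 0.06 in MV4-11, P4HA1, a collagen prolyl hydroxylase, by 0.43 ± 0.08, BNIP3L by 0.62 ± 0.10 and BHLHE40, a repressor that is also a clock gene, by 0.52 ± 0.12. ADM, the peptide adrenomedullin, was called in MV4-11 but near the detection limit, at 0.0502 and 0 CPM at 8 h and 0.562 and 0.813 CPM at 24 h, so no fold is given. EPAS1, the related factor HIF-2 alpha, which is not in that list, was lower (−0.70 ± 0.16, edgeR adjusted p = 0.0153). Of 19 glycolysis genes, ALDOC and ENO2 were higher in MV4-11, and the list median was −0.01. ALDOC went from 11.3 and 11.5 to 25.1 and 33.6 CPM (1.36 ± 0.12, edgeR adjusted p = 8.16e-06). SLC2A3, a high-affinity glucose transporter, went from 13.5 and 12.5 to 25.2 and 30.9 CPM in MV4-11 and from 88.8 and 84.9 to 87.3 and 92.9 CPM in KG-1a (difference 1.08, edgeR adjusted p = 4.09e-06). For 9 of the 10 hypoxia genes called in MV4-11, replicate B was above replicate A at 24 h (50.1% of all genes tested lay so). The count of the list called higher was 4 without 24 h B and 8, 6 and 9 without 8 h A, 8 h B and 24 h A.

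The core of the hypoxia response element, ACGTG, is short and common, and was found on either strand in the 250 bases before 5 of the 8 hypoxia genes in RefSeq's promoter table (BHLHE40, BNIP3, MXI1, P4HA1 and PDK1) and before 21.7% of all 27305 genes. The same letters lie before 4 of the 7 unfolded protein response genes lower in both lines (HERPUD1, HSP90B1, HYOU1 and PDIA4). Stretches before BNIP3 (chr10:131981984-131982083, minus strand, where 2 matches overlap as a palindrome) and PDK1 (chr2:172555990-172556089, plus strand, 2 matches) are shown with the matches in capitals. The sterol regulatory element TCACNCCAC was found before 1 of 12 cholesterol genes in that table, SREBF2, and before 1.09% of all genes. The hypoxia and cholesterol lists were likewise made of known targets, so these shares say nothing of the change with time.
BNIP3: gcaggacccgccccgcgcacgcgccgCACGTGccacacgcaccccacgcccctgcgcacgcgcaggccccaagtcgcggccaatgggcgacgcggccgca
PDK1: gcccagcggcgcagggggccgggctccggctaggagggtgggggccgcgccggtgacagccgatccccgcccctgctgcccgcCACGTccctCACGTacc

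**Figure D3:**
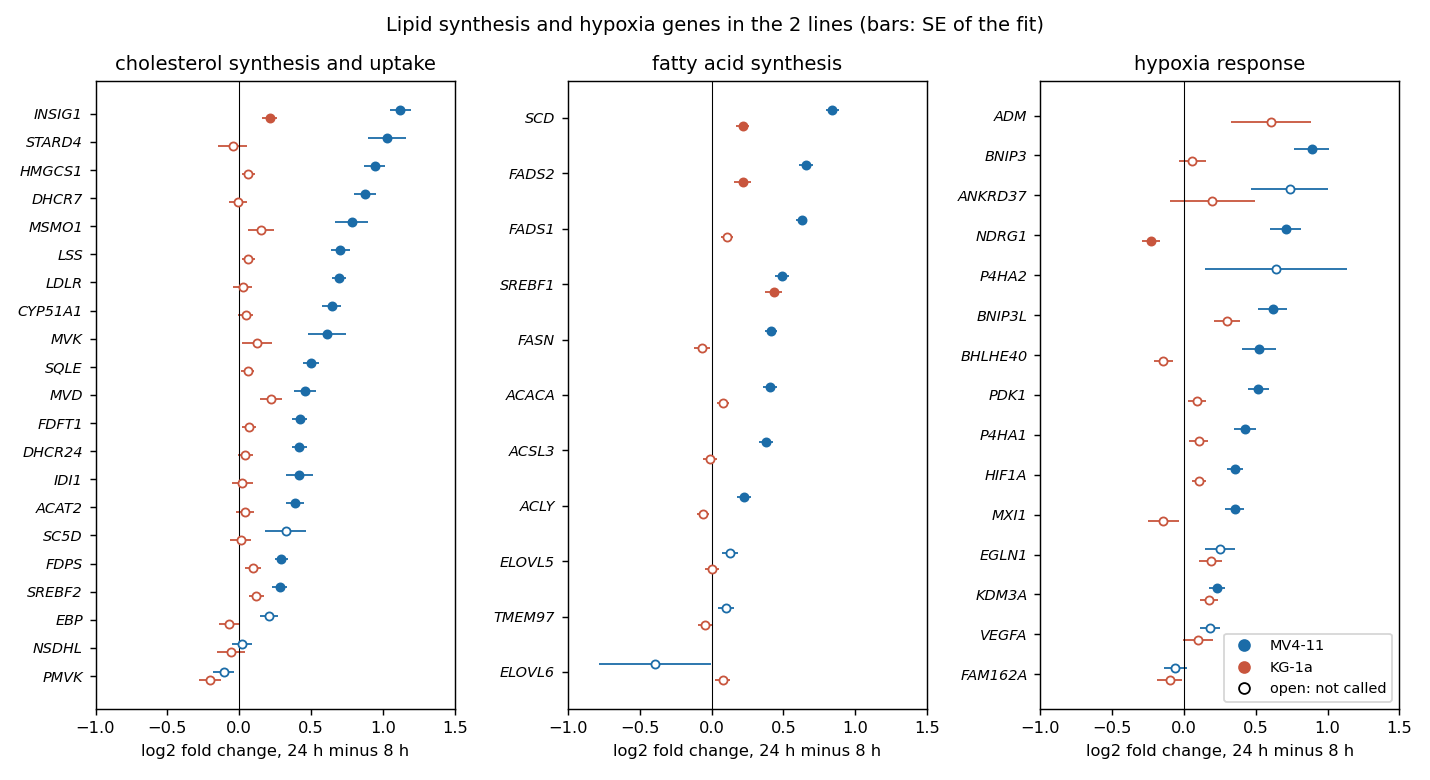
Log2 fold change from 8 h to 24 h with its standard error for the tested members of 3 gene lists (1 cholesterol gene is not drawn), MV4-11 in blue and KG-1a in red, filled where the edgeR adjusted p was below 0.05 (ADM in MV4-11 lies outside the axis, and ANKRD37 and P4HA2 in MV4-11 are open). In MV4-11, 18 of 22 cholesterol genes, 8 of 11 fatty acid genes and 10 of 15 hypoxia genes were called higher, while the filled KG-1a points are INSIG1, SCD, FADS2, SREBF1 and NDRG1, and other KG-1a points as far from 0, such as ADM and BNIP3L, are open.

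Other genes at the top of the MV4-11 increases belong to several lists. DDIT4, an inhibitor of mTORC1 induced by many stresses, went from 8.68 and 8.73 to 20.9 and 30 CPM in MV4-11 and from 34.2 and 33.6 to 30.3 and 32.3 CPM in KG-1a. The change was 1.55 ± 0.15 in MV4-11 (edgeR adjusted p = 1.84e-05) and −0.12 ± 0.08 in KG-1a, and the difference between the lines was 1.68 (edgeR adjusted p = 4.09e-06). ICAM1, an adhesion receptor and NF-kappaB target, went from 3.41 and 2.96 to 7.96 and 10.6 CPM in MV4-11 (1.55 ± 0.16) and from 22.3 and 22.3 to 26.7 and 25.7 CPM in KG-1a (0.23 ± 0.08, not called). The NF-kappaB list as a whole had 3 of 15 members higher in MV4-11 (ICAM1, BCL3 and TNFAIP3) and 1 of 15 in KG-1a, against 3.38% and 2.49% of all genes. CD300A, an inhibitory receptor of myeloid cells, rose by 1.36 ± 0.14, TSC22D3, the glucocorticoid-induced leucine zipper, by 1.18 ± 0.12, TUBA1A, an alpha tubulin, by 1.24 ± 0.14 and PPP1R3B, a glycogen-targeting phosphatase subunit, by 1.09 ± 0.25. ATF5, a stress-induced transcription factor, went from 53.5 and 52.8 to 82.8 and 105.8 CPM in MV4-11 and from 19.6 and 19.6 to 15.4 and 17.8 CPM in KG-1a (difference 1.09, edgeR adjusted p = 0.000233). C6orf223, IL4I1 and KIR3DX1 were also among the 10 largest increases, from low levels of at most 1.85 CPM at 8 h.

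Among the MV4-11 decreases, SEMA6B, a transmembrane semaphorin, went from 15.8 and 15.8 to 8.57 and 7.77 CPM (−0.95 ± 0.11, edgeR adjusted p = 0.000114) and was not tested in KG-1a. MIR663AHG fell from 5.52 and 6.56 to 2.2 and 2.12 CPM (−1.48 ± 0.20, edgeR adjusted p = 0.000458). MIR663A lies within it and MIR3648-1 is one of several near-identical copies, so their decreases (−1.20 and −1.17) may share or divide reads. Of 5 granulocyte markers tested, PRTN3 and ELANE were called lower and none higher, with PRTN3 at 788 and 800 CPM at 8 h and 673 and 661 CPM at 24 h (−0.25 ± 0.05) and ELANE at −0.24 ± 0.05. Of 5 monocyte and macrophage markers tested, the calprotectin genes S100A8 (−0.58 ± 0.11) and S100A9 (−0.61 ± 0.13) were called lower and none higher, with 2 of the 5 changes positive. The summed level of 8 granulocyte markers went from between 1640 and 1650 to between 1430 and 1460 CPM, and that of 10 monocyte and macrophage markers from between 42.2 and 45.4 to between 38.5 and 38.9 CPM, with CD163 at 0. The granulocyte markers AZU1 (322 and 318 to 324 and 313 CPM) and MPO (11.1 and 11.8 to 12.2 and 12.6 CPM) and the macrophage marker FCGR1A (19.9 and 22.1 to 22.2 and 22.9 CPM) were not called. FLT3 rose from 415 and 428 to 483 and 486 CPM (0.20 ± 0.04, edgeR adjusted p = 0.00823) and CSF1R, the receptor of the macrophage growth factor, by 0.38 ± 0.06. In such bulk libraries, fewer cells of a type and less RNA per cell cannot be told apart.

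CHI3L1, CYP1B1 and NECTIN1 had the smallest adjusted p of the KG-1a decreases. CYP1B1, a cytochrome P450 and target of the aryl hydrocarbon receptor, went from 1362 and 1535 to 740 and 718 CPM (−0.99 ± 0.06, edgeR adjusted p = 5.58e-07). NECTIN1, an adhesion molecule, went from 182.6 and 164 to 90.7 and 100.3 CPM in KG-1a (−0.86 ± 0.07) and from 59.5 and 59.2 to 57.3 and 57.4 CPM in MV4-11 (difference 0.82, edgeR adjusted p = 3.36e-05). The groups did not overlap for these genes in KG-1a, and in MV4-11 CYP1B1 was at most 1.76 CPM and not called. FGFBP2 (−1.41 ± 0.25), DDIT3, the stress factor CHOP (−0.79 ± 0.21), F2RL3, a thrombin receptor (−0.75 ± 0.19), CCR7, a chemokine receptor (−0.61 ± 0.13) and SMAD6, an inhibitor of BMP signalling (−0.58 ± 0.11) were lower from levels of at most 10.1 CPM.

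The 10 largest KG-1a increases by fold lay at low levels. TRIB1 went from 1.48 and 2.09 to 3.93 and 4.35 CPM (1.20 ± 0.23, edgeR adjusted p = 0.00801). CD38, a surface NAD hydrolase lost or low on the most immature cells, went from 4.28 and 3.54 to 7.71 and 7.13 CPM (0.93 ± 0.17, edgeR adjusted p = 0.00739), and C1QTNF1, a secreted protein of the C1q family, from 2.52 and 1.94 to 4.44 and 4.19 CPM (0.96 ± 0.17). SETBP1, RAB11FIP4, DLGAP1-AS1, ESRP1, NUDT7 and SLC9A5 rose by between 0.83 and 1.06, with no level above 4.59 CPM. Among the T cell markers, CD3E rose from 26.3 and 25.6 to 37.9 and 38.2 CPM (0.55 ± 0.10, edgeR adjusted p = 0.00571) while CD3D, at between 260 and 273 CPM, was not called. Of the 75 KG-1a values named by rule or described here that passed the test, 11 passed under all 14 alternatives, and HSPA5, HSP90AA1, HSPH1, CHI3L1, CYP1B1, NECTIN1, ABCG1 and SREBF1 were among them.

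The 5 genes with opposite changes were all called in the test of the difference, which uses the same libraries that picked them. Passing it was therefore largely set by the choice and is no separate support. BMF, a BH3-only promoter of apoptosis, went from 28.2 and 27.6 to 33.4 and 36.3 CPM in MV4-11 and from 48.5 and 43.3 to 33.4 and 34.9 CPM in KG-1a (difference 0.76, edgeR adjusted p = 8.38e-05). NDRG1, a hypoxia-induced gene, went from 39.7 and 41.2 to 56.7 and 75.3 CPM in MV4-11 and from 128 and 117.5 to 104.2 and 105.2 CPM in KG-1a (difference 0.95, edgeR adjusted p = 0.00024). SNTB1, a syntrophin, was higher in MV4-11 and lower in KG-1a, while TMEM129, an ER ubiquitin ligase, and IGFBP7, a secreted binding protein, were lower in MV4-11 and higher in KG-1a. Their calls in KG-1a had edgeR adjusted p-values of up to 0.0498. Of 14 alternatives, BMF lost its call under 3 in MV4-11 and 1 in KG-1a, NDRG1 under 0 and 7, SNTB1 under 2 and 6, TMEM129 under 6 and 7, and IGFBP7 under 6 and 5.

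Over all 14055 genes, the change with time differed between the lines for 171 (1.22%), of which 134 (0.953%) had a change in MV4-11 above that in KG-1a. The reverse difference was found for 37 genes (0.263%). S100A6, a calcium-binding protein, went from 34.6 and 34.6 to 29.9 and 30.1 CPM in MV4-11 and from 6.37 and 6.6 to 9.58 and 9.14 CPM in KG-1a (difference −0.72, edgeR adjusted p = 0.00591). AGRN, RTL8A and RHPN1 showed the same order with differences of −0.90, −0.86 and −0.73. The count of 171 was 67 and 110 without MV4-11 8 h A and B, 115 and 68 without MV4-11 24 h A and B, 115 and 80 without KG-1a 8 h A and B, and 70 and 66 without KG-1a 24 h A and B.

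Other gene groups had fewer calls or none. For comparison, 3.38% of all genes were called higher and 2.16% lower in MV4-11, and 2.49% and 1.97% in KG-1a. None of 25 ribosomal protein genes was called in either line, nor any replication-dependent histone gene (12 and 13 tested) or MHC class II gene (10 and 2 tested). By an unadjusted p below 0.05 in the same edgeR test, 0 ribosomal protein genes passed in either line, 1 and 0 histone genes, and 2 and 1 MHC class II genes. The alternatives, DESeq2 among them, called at most 2 ribosomal protein genes (KG-1a), 1 MHC class II gene (MV4-11) and no histone gene. Of the G1/S and DNA replication genes, 1 of 29 was higher in MV4-11 and none of 28 was called in KG-1a, where 6 passed unadjusted. Of 26 mitotic genes, CDC20 was lower in both lines (−0.21 ± 0.06 and −0.29 ± 0.06), and CCNB1, PLK1 and UBE2C were lower in MV4-11. In KG-1a 24 of the 26 mitotic genes had a negative change, 10 passed unadjusted and the alternatives called up to 5, while in MV4-11 1 was called without any 1 library. Of the p53 targets none of 24 was called in MV4-11 (5 unadjusted) and SESN1 was higher in KG-1a, of the lysosome and autophagy genes WIPI1 alone was higher in KG-1a, and of 24 respiratory chain genes CYCS alone was lower in KG-1a. In MV4-11 22 of those 24 had a negative change and none was called, with 8 passing unadjusted and up to 5 called lower under the alternatives. Interferon-stimulated genes were called in both directions in KG-1a, with IFIT3, IFI44 and DDX58 higher and RSAD2 among those lower, and MX2 and XAF1 were higher in MV4-11. Of the FOXO targets, 4 of 18 were higher and 1 lower in MV4-11, and 3 of 18 were higher in KG-1a. Immediate early genes had 3 of 29 members higher in MV4-11 and 1 of 25 lower in KG-1a, clock genes 1 of 14 higher in MV4-11, and glucose-sensing genes 2 of 10 higher and 1 lower in MV4-11. Of the lists kept as a view of RNA turnover, 2 of 22 unstable transcripts were higher and 2 lower in MV4-11 and 2 of 24 lower in KG-1a, while 3 of 20 long-lived transcripts were lower in MV4-11 and 1 was higher and 1 lower in KG-1a.

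The study's own pathway, cysteine and methionine metabolism, had few calls. Of 34 genes tested in MV4-11, IL4I1 was higher and ADI1 lower, and of 33 in KG-1a, GCLM and SRM were lower, with medians of −0.0006 and −0.02. MAT2A, which makes S-adenosylmethionine from methionine, was at 689 and 698 CPM at 8 h and 665 and 637 CPM at 24 h in MV4-11, and at 547 and 553 CPM at 8 h and 545 and 541 CPM at 24 h in KG-1a. Its changes of −0.09 ± 0.04 and −0.02 ± 0.04 did not pass (edgeR adjusted p = 0.208 and 0.842). Of the amino acid response genes, DDIT4 and SLC38A2 were higher in MV4-11, PHGDH and SLC38A2 were higher in KG-1a, and DDIT3 and SLC7A5 were lower in KG-1a, with list medians of 0.06 and 0.03.

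**Figure D4:**
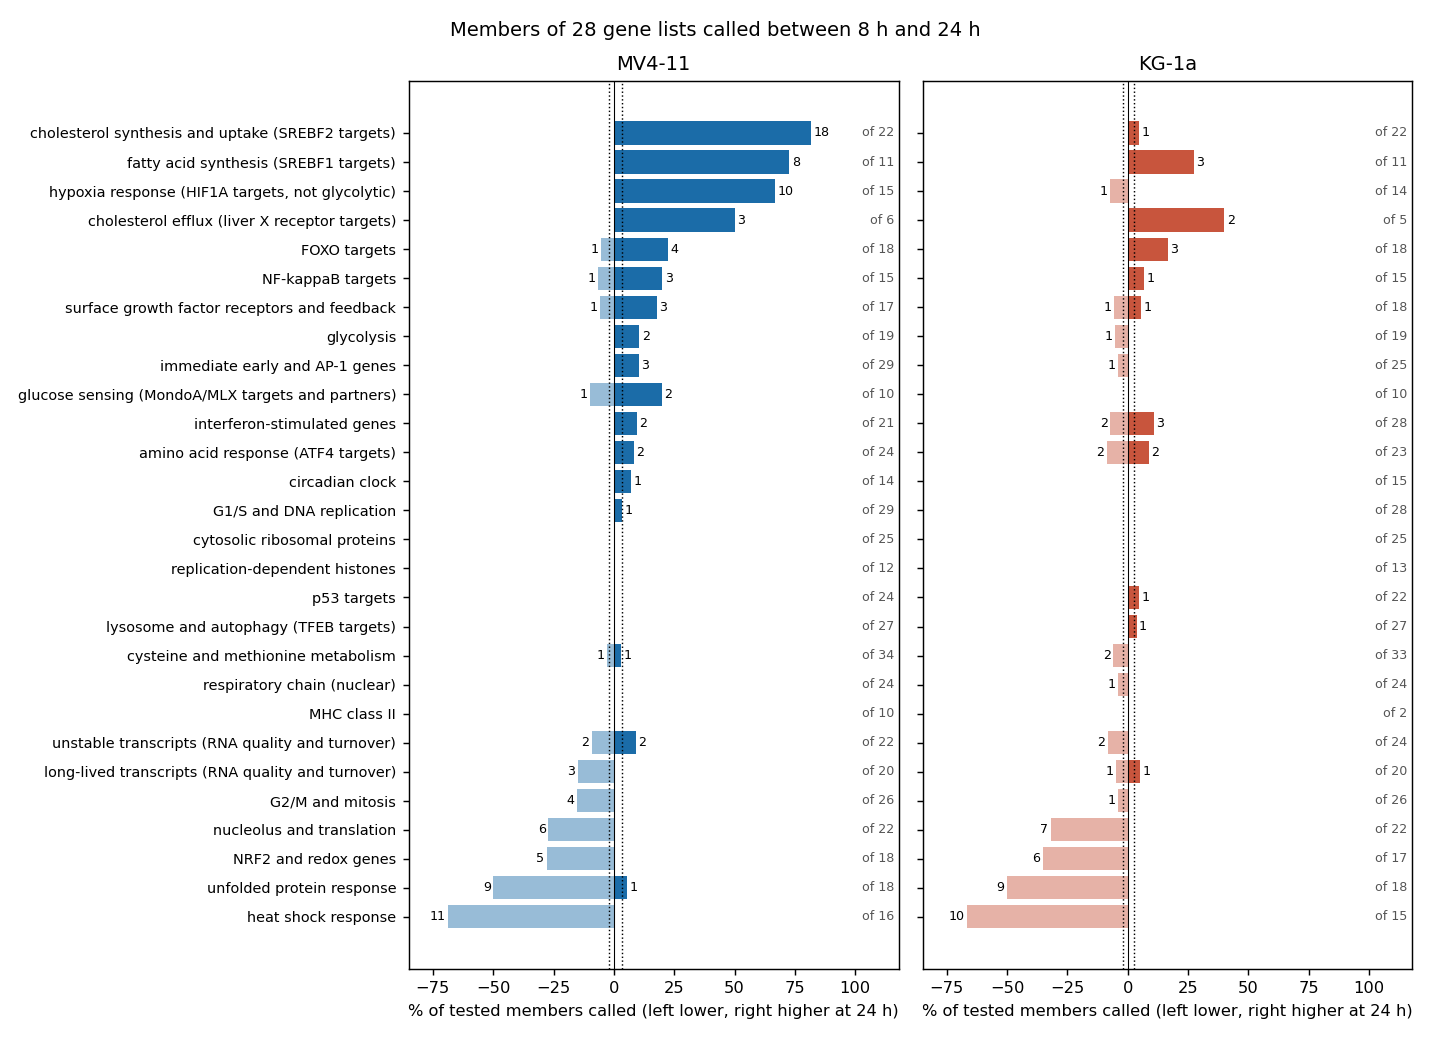
Percentage of tested members of each of 28 gene lists called lower (left, pale) or higher (right, full colour) at 24 h in untreated MV4-11 (blue) and KG-1a (red), with the number called beside each bar and the number tested at the right, and dotted lines at the percentage of all genes called in each direction. Heat shock and unfolded protein response genes were lower in both lines (11 of 16 and 10 of 15, and 9 of 18 in each), while cholesterol genes (18 of 22 against 1 of 22) and hypoxia genes (10 of 15 against 0 of 14) were higher in MV4-11.

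The shared genes were followed in the treated cultures of the same lines, which share no library with the untreated ones. The treated comparisons do come from the same fits per line, with the same estimate of spread for each gene. A gene with a low estimate is easier to call in both, so the counts below are a description and not independent support. Within 8CA and within 8AA, 24 h was again compared with 8 h, so that time and exposure rise together. Of the 47 genes higher in both untreated lines, 31 (8CA) and 33 (8AA) were called higher in MV4-11 and 39 and 41 in KG-1a, where 21.6%, 13.7%, 25.6% and 22.9% of all genes were called higher (43.7%, 25.5%, 50.0% and 47.1% in either direction). All 4 comparisons called 22 of the 47 higher, against 3.35% of the genes tested in both lines. Of the 48 genes lower in both, 45 and 29 were called lower in MV4-11 and 46 and 48 in KG-1a (22.1%, 11.8%, 24.3% and 24.3% of all genes), and all 4 comparisons called 27 of the 48 lower, against 4.88% (8.24% of genes were called alike in either direction). In the opposite direction, 5 of the 47 genes were called lower in MV4-11 with 8CA, 4 in KG-1a with 8CA and 1 in each line with 8AA, and 5 of the 48 were called higher in MV4-11 with 8AA and none in the other 3 comparisons. OLMALINC was higher in all 4, by between 0.75 and 1.33 on the log2 scale, and SREBF1, ABCG1 and ABCA1 were also called higher in all 4. SCD was called lower in KG-1a with 8CA (−0.77) and 8AA (−0.29) and higher in MV4-11 with 8AA (0.82). FADS2 was lower with 8CA in both lines (−0.42 in MV4-11 and −0.35 in KG-1a) and higher with 8AA in both. INSIG1 was lower in KG-1a with 8CA (−0.83) and higher in the other 3 comparisons.

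**Figure D5:**
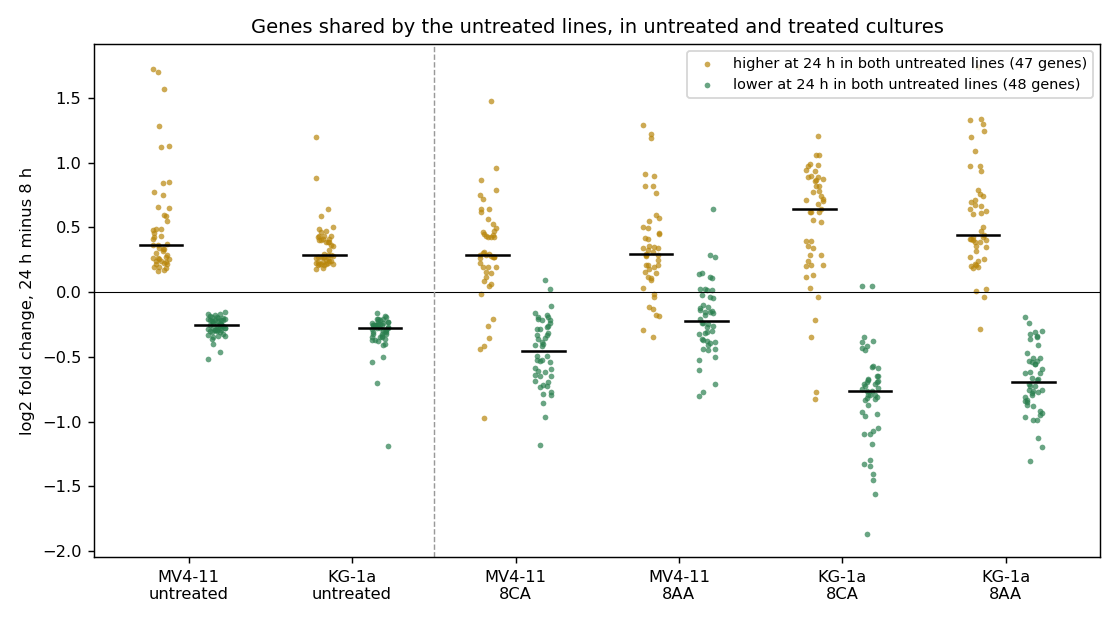
Log2 fold change from 8 h to 24 h of the 95 shared genes in untreated cultures, where they were chosen, and in cultures given 1 μM 8CA or 8AA (right of the dashed line), with 1 point per gene and a bar at the median. The 47 genes higher in both untreated lines (ochre) were positive for between 39 and 45 genes in the treated comparisons, and the 48 lower genes (green) were negative for between 37 and 48.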

How the data were processed

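RNA of MV4-11 and KG-1a cells was sequenced in 24 libraries, and the authors deposited 1 table of raw read counts per gene. The submitters' notes name Trimmomatic, STAR 2.6.0, HTSeq 0.11.1 and edgeR, and both hg19 and hg38. For the build and strand setting behind the counts, nothing is stated (not given in the sources used here). Gene coordinates of the table are therefore not printed. Groups and replicate letters were taken from the sample labels, with hours of untreated libraries from the titles. Counts were filtered (edgeR filterByExpr, minimum count 10), scaled by TMM and fitted in edgeR 4.0.16 (R 4.3.3) by the quasi-likelihood test, with 1 coefficient per group in the 12 libraries of each line and Benjamini-Hochberg adjustment at 0.05. Differences between lines were tested in a fit of all 24 libraries (14055 genes). Treated libraries share in the estimate of spread. The fits were tested on simulated data. Totals of 18633963 to 22616316 reads per untreated library limit scarce genes most.

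The members, the 28 gene lists and the tests were chosen with earlier results of these data known. Named by rule were, per line, the 10 largest changes each way among called genes whose log2 CPM averaged 1 or more, the 15 shared genes each way with the largest smaller change among those at that level in both lines, 5 each way of opposite genes and of line differences, and list members. Promoters and their motifs came from RefSeq (GRCh38.p14). Alternatives covered scaling, low-count filters, the libraries fitted, a replicate block, DESeq2 1.42.0, stricter thresholds and leaving out each library. A few genes are not reported here.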

Additional observations from a re-analysis of the deposited data

Results flagged for a closer look

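The change between 8 h and 24 h differed between the untreated lines for 171 genes, by a test of the difference itself in all 24 libraries (edgeR's quasi-likelihood test, p-values adjusted by Benjamini-Hochberg). The values below are the MV4-11 change minus the KG-1a change on the log2 scale, for the genes named here that passed. The difference was positive for DDIT4 (1.68), ICAM1 (1.33), PPP1R3B (1.11), STARD4 (1.09), ATF5 (1.09), SLC2A3 (1.08), BCL3 (1.03), NDRG1 (0.95), ABCG1 (0.94), TUBA1A (0.92), INSIG1 (0.92), DHCR7 (0.90), HMGCS1 (0.89), CHI3L1 (0.86), OLMALINC (0.86), BNIP3 (0.85), NECTIN1 (0.82), ABCA1 (0.79), BMF (0.76), BHLHE40 (0.68), LSS (0.66), SCD (0.64), FADS1 (0.54), AHR (0.50), FASN (0.50), SNTB1 (0.49), MYLIP (0.46), SQLE (0.46), FADS2 (0.45), AHRR (0.45), PDK1 (0.44), HSPA5 (0.31), HSPH1 (0.26) and TXNRD1 (0.25). It was negative for KCNH4 (−1.56), MIR663AHG (−1.10), AGRN (−0.90), RTL8A (−0.86), RHPN1 (−0.73), S100A6 (−0.72), TMEM129 (−0.56) and IGFBP7 (−0.43). For HSPA5, HSPH1, TXNRD1, CHI3L1 and NECTIN1 the positive difference stands for a larger decrease in KG-1a. AHRR decreased in KG-1a and changed by 0.05 in MV4-11, where it was not called. For BMF, NDRG1 and SNTB1 the difference stands for an increase in MV4-11 and a decrease in KG-1a. AHR and AHRR were chosen after their values were seen. With 2 libraries per group, no test for a library that stands apart within its group was made.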

How the results depend on the processing

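No named value changed direction in any alternative that kept it called, and among the named calls 48 of 103 in MV4-11 and 11 of 75 in KG-1a passed under all 14 alternatives other than the stricter thresholds. The 709 and 566 genes called in MV4-11 and KG-1a became 1122 and 936 with no filter on low counts, 43 and 11 with an absolute log2 change of at least 1, and 226 and 144 at an adjusted p below 0.01. With the untreated libraries fitted alone KG-1a had 1006 calls, and by DESeq2's Wald test MV4-11 had 453. The 47 shared increases became 74 with library size only, 71 with untreated libraries only, 19 by DESeq2, 0 with the fold threshold and 4 at 0.01. The 48 shared decreases became 115 with no filter, 99 with untreated libraries only, 0 with the fold threshold and 10 at 0.01. The 171 line differences became 281 with no filter, 19 with the fold threshold and 56 at 0.01, and the 49 shared genes called alike in all 4 treated comparisons became 87, 0 and 13 under the same settings. The cause of these shifts was not tested beyond the change in threshold or in genes tested. The replicates of KG-1a given 8AA for 24 h, which enter that line's spread estimate, differed most (chi-square per degree of freedom 12.25). The other KG-1a groups lay between 1.432 and 3.591. Whether this bears on the KG-1a calls was not tested.

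The letters A and B of the untreated libraries do not mark a stated pairing. Their differences did not move together between 8 h and 24 h (correlation of A minus B −0.117 in MV4-11 and −0.0426 in KG-1a). Among the 8 h groups, treated ones included, the correlations were 0.132 to 0.159 in MV4-11 and −0.0126 to 0.0357 in KG-1a. The highest of any pair was 0.161, between KG-1a untreated 8 h and 8AA 24 h. With the letter as a replicate block, the counts were 1321 (MV4-11), 788 (KG-1a), 81 and 106 (shared higher and lower), 304 (line difference) and 88 (alike in treated cultures). Pairing the MV4-11 24 h letters crosswise, an alternative chosen after seeing the data, gave 1912, 89, 139, 410 and 100 for these apart from KG-1a.

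Leaving out 1 library gave between 153 and 287 calls in MV4-11, between 60 and 209 in KG-1a, between 9 and 26 shared increases, between 5 and 26 shared decreases, between 66 and 115 line differences and between 6 and 29 genes alike in treated cultures.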

Other observations

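The genes in the following 2 paragraphs were chosen after their values were seen. Subunits of the proteasome, which degrades ubiquitinated proteins, were lower in part in both lines, with 13 of 38 called lower in MV4-11 and 8 of 37 in KG-1a and none higher. Of all genes, 2.16% and 1.97% were called lower. The median change of the subunits was −0.16 in each line. PSMA3, PSMB3, PSMD3, PSMD7 and PSMD11 were called in both. Of 9 subunits of the CCT chaperonin, which folds actin and tubulin, 4 were lower in KG-1a (CCT2, CCT5, CCT6A and TCP1) and none was called in MV4-11.

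In KG-1a, AHRR, the repressor of the aryl hydrocarbon receptor, went from 201.1 and 188.7 to 146 and 152.7 CPM (−0.38 ± 0.05 on the log2 scale, SE, edgeR adjusted p = 0.00044). Of 8 genes of this receptor's pathway tested, 3 were lower in KG-1a (AHRR, CYP1B1 and NQO1), against 1.97% of all genes. In MV4-11 AHR was higher and NQO1 lower. The receptor gene AHR itself rose in MV4-11 from 26.4 and 26.2 to 34.5 and 34.9 CPM (0.40 ± 0.07, edgeR adjusted p = 0.00252) and changed by −0.09 ± 0.04 in KG-1a, where it was not called. ITGAL, the integrin CD11a, was among the KG-1a changes with the smallest adjusted p. It went from 966 and 922 to 675 and 684 CPM (−0.47 ± 0.04, edgeR adjusted p = 8.11e-06). ITGAL did not move in this way in MV4-11 (0.01 ± 0.04), and the difference was 0.50 (edgeR adjusted p = 6.1e-06).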
